A study of Mus musculus with 32 samples.

Results

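The genes described here are the nuclear genes for the subunits of the mitochondrial oxidative phosphorylation complexes. They were chosen by symbol alone: Nduf genes followed by a, b, c, s, v or ab and a digit, Sdha to Sdhd, Uqcr genes with Cyc1 and Cycs, Cox4i to Cox8 genes and Atp5 genes, if protein coding. The rule found 89 of the 27179 genes counted: 40 of complex I, 4 of complex II, 9 of complex III, 18 of complex IV, 17 of complex V and the gene of cytochrome c. Complex I passes electrons from NADH, and complex II from succinate, to ubiquinone. Complex III hands them to cytochrome c, complex IV passes them to oxygen, and complex V (ATP synthase) makes ATP from the proton gradient that complexes I, III and IV build. Adult blood stem cells are known for a low reliance on this pathway, which gains weight as they differentiate.

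The study deleted Kat7 (Hbo1), the gene of a histone lysine acetyltransferase, in adult C57BL/6 mice and sequenced RNA of cells sorted from them. LSK cells are the lineage-negative, Sca-1+ Kit+ fraction that holds blood stem cells and early multipotent cells, and the second population was labelled only as progenitors. Deletion was driven by RosaCreERT2 after tamoxifen (CreER below) or by Mx1Cre after polyIC, an inducer of interferon. Each of the 16 mice gave 1 library of each population, so 32 libraries fall into 8 groups of 4. Knockouts were Hbo1fl/fl with both alleles deleted. Controls were Hbo1fl/+ with the same Cre and inducer and 1 deleted allele per the sample titles, although the treatment protocol calls them wild type. CreER and Mx1Cre therefore differed in Cre, in inducer and in the cells the driver reaches, and these cannot be told apart. CreER groups held 3 females and 1 male each, Mx1Cre groups 2 of each sex.

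Promoters are shown first because these genes are known as targets of NRF1, of GABPA (an ETS factor, also named NRF2) and of YY1, activators of genes for mitochondrial proteins. In each complex the member with the lowest p in the LSK knockouts was taken among those whose promoter held a searched motif. Each stretch runs from 250 bases before to 50 bases after the start site in RefSeq on GRCm38.p6, 5′ to 3′ on the gene's strand, with the motif in capitals.
Ndufs6: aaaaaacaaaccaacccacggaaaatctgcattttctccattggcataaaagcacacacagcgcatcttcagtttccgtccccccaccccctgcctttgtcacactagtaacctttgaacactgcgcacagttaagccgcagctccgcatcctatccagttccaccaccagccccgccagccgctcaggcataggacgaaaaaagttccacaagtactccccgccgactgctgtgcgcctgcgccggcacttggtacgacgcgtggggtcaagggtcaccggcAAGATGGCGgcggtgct
Sdhd: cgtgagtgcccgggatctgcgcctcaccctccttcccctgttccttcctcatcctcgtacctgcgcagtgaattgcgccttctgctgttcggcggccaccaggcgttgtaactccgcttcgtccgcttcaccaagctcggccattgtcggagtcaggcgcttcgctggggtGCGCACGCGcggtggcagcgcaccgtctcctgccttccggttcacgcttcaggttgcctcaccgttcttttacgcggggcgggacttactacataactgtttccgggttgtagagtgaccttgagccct
Uqcrc1: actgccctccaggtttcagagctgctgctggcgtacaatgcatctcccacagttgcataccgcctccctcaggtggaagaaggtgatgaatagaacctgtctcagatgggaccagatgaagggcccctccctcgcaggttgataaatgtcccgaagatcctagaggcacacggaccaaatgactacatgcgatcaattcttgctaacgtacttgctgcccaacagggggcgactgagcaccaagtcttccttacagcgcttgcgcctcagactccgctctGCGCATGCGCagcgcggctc
Cox6a1: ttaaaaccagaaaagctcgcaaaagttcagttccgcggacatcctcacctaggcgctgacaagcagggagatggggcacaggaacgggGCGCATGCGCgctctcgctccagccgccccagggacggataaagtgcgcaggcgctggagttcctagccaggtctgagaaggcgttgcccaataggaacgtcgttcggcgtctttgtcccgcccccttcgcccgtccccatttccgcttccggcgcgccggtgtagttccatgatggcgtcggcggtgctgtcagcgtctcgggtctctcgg
Atp5j: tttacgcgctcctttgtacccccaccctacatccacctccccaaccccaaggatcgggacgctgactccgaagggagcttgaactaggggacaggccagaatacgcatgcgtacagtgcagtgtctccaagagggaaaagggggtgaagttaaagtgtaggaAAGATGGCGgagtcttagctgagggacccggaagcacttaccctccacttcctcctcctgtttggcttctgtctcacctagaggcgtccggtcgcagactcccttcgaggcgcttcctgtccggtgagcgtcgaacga
These lie at chr13:73328433-73328732 (minus strand), chr9:50603800-50604099 (minus), chr9:108936398-108936697 (plus), chr5:115348909-115349208 (minus) and chr16:84834927-84835226 (minus), in that order. The capitals mark NRF1 letters in Sdhd, Uqcrc1 and Cox6a1 and YY1 letters in Ndufs6 and Atp5j. Their first base lies at -79 in Sdhd, at 31 in Uqcrc1, at -162 in Cox6a1, at 34 in Ndufs6 and at -88 in Atp5j, counted from the start site as 1. In Uqcrc1 and Cox6a1 the run is 1 base longer than the motif because the letters match on both strands.

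On both strands, the letters searched were GCGCATGCG or GCGCACGCG for NRF1, CCGGAAGT for ETS and AAGATGGCG for YY1. RefSeq promoters matched 71 of the 89 members by gene ID. NRF1 letters stood in 14 of them (19.7%) against 3.80% of 27025 genes with a promoter, YY1 letters in 7 (9.86% against 1.64%) and ETS letters in 5 (7.04% against 4.31%). At least 1 of the motifs stood in 25 members (35.2%) against 9.11% of all genes. By complex that was 10 of 34 for complex I, 1 of 3 for complex II, 3 of 5 for complex III, 2 of 13 for complex IV, 8 of 15 for complex V, and also Cycs. Among members that rose in knockout LSK cells 15 of 43 held a motif, and 10 of 25 among those tested that did not pass. These matches describe the letters in this window and say nothing of binding.

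The libraries held 7275277 to 18409271 counts (median 12207444), and the members took 0.959% to 1.76% of them. Kat7 fell in each knockout group: from 67.3 ± 10.2 to 0.846 ± 0.279 CPM (read counts scaled to library size with TMM factors; mean ± SD, n = 4) in LSK CreER and from 70.6 ± 4.62 to 1.34 ± 0.299 in LSK Mx1Cre. In progenitors it fell from 71.5 ± 4.58 to 0.454 ± 0.433 with CreER and from 61.9 ± 15.5 to 1.47 ± 0.179 with Mx1Cre. In 2 libraries, LSK CreER knockouts 2 and 3, the level of Xist, the only sex-linked gene used for this check, went against the labelled sex. The slope of log2 CPM on exon length over genes that are not members was -0.350 per doubling in progenitor Mx1Cre control 1 and -0.291 in progenitor Mx1Cre knockout 4, against -0.133 to 0.119 in the other 30 libraries. Counts of called members and summed levels that rest on these 4 libraries are also given without them. As a check of the gate, all 10 LSK and stem cell markers were higher in LSK than in progenitor controls, with a median log2 difference of 3.31, and all 10 progenitor markers were lower.

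Levels were compared between genes per length, as TPM, the counts divided by exon length and scaled to a common total. The highest mean over the 32 libraries was that of Atp5b (the catalytic beta subunit of ATP synthase) at 1784 TPM in complex V, Cox4i1 at 1001 in complex IV, Ndufa4 at 676 in complex I, Uqcrc1 (a core protein) at 503 in complex III and Sdhd (a membrane anchor) at 326 in complex II. The lowest were Sdhc at 244 in complex II, Uqcrb at 99.96 in complex III, Atp5l at 8.31 in complex V and Ndufa4l2 at 0.18 in complex I. Cycs stood at 13.7 TPM. Levels of complex II genes thus lay close together, while those of the other complexes spread widely.

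Members with few or no reads were mostly isoforms known from other tissues. Cox7b2 and Cox8c had 0 counts in all 32 libraries and Cox8b, a muscle isoform, had 3 counts. These, Ndufa4l2 and the muscle isoform Cox7a1 did not pass the filter on low counts in LSK cells, which left 84 members tested. In progenitors the muscle isoform Cox6a2 did not pass either, which left 83. In the fit over both populations 85 were tested, with Cox7a1 and Cox6a2 among them. Of 87 members with transcripts in GENCODE vM21, 49 shared no stretch of 80 bases with another gene's transcripts. Atp5l shared 74.6% of its stretches and was the member over 50%, so its low level is uncertain. Shares were 35.6% for Atp5g2, 34.9% for Ndufb4 and 35.5% for Atp5o. On the genome 18 members overlap another protein coding gene, and the strand setting of the counting is not given in the sources used here.

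In knockout LSK cells subunit genes of all 5 complexes were higher than in controls. Over the mean of both Cre lines 54 of 84 members rose and 1 fell, where 27.8% of all 14102 genes tested were called, 13.4% as higher (edgeR's quasi-likelihood test, Benjamini-Hochberg adjusted p under 0.05). The median log2 change was 0.33 over the members and 0.01 over all genes. The rise was small for each gene: between the lowest and the highest member log2 changes ran from -0.85 to 0.99, and 79 of 84 were above 0. Without LSK CreER knockouts 2 and 3 47 rose and 0 fell, with a median of 0.33. In bulk RNA, fewer cells of a type and less RNA per cell cannot be told apart, and all values here are relative to the library.

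**Figure D1:**
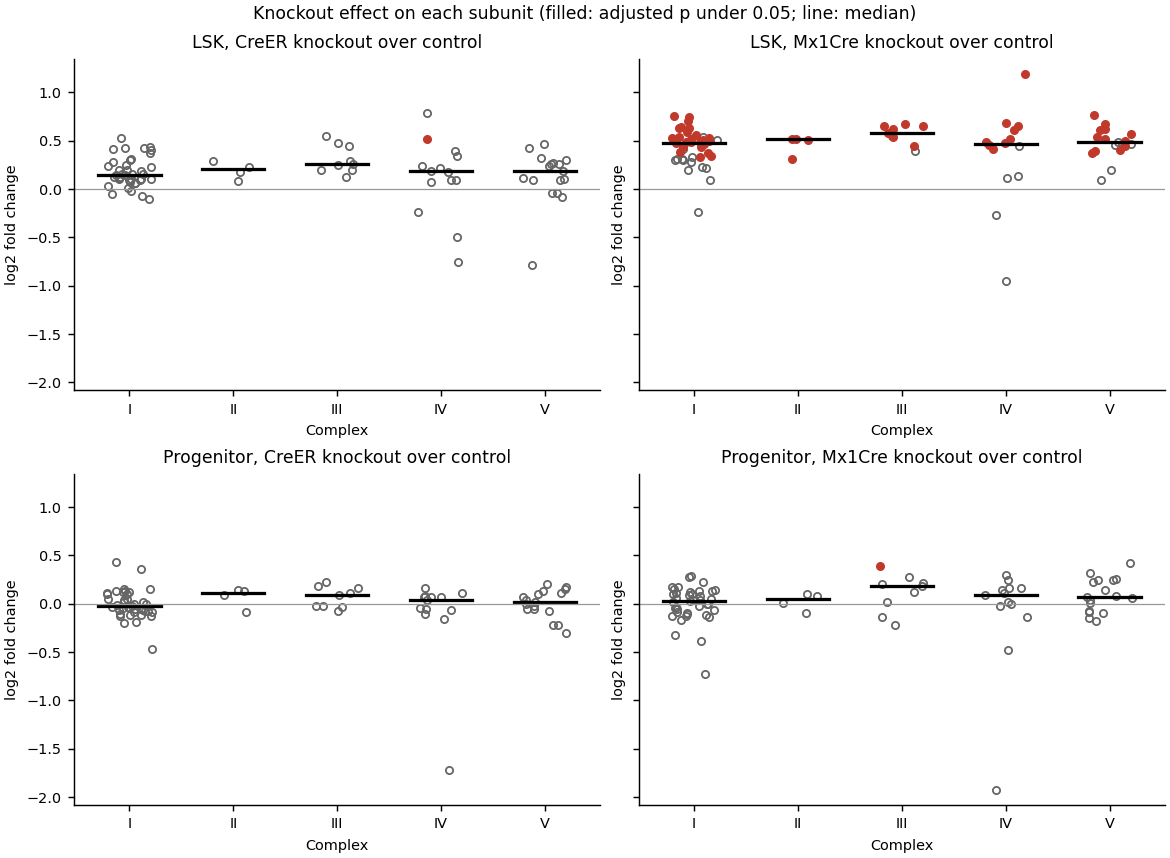
Log2 change of each member in knockouts over controls, by complex, for LSK and progenitor cells and both Cre lines; filled points have an adjusted p under 0.05 and the line is the median of the complex. In LSK Mx1Cre the medians lie between 0.47 and 0.58, in LSK CreER between 0.15 and 0.26, and over all members of the progenitors they are -0.01 and 0.05.

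Complex I had 23 of 39 tested members higher and 0 lower in LSK knockouts, with a median log2 change of 0.32. All 7 core subunits, which bind the cofactors of electron transfer, rose, by 0.22 to 0.33 on the log2 scale. Of the 32 accessory subunits 16 rose, with a median of 0.33. The lowest p was that of Ndufb5, an accessory subunit of the membrane arm (gene 66046, mm10 chr3:32737057-32751559). Its CPM in LSK CreER controls was 80.9, 75.2, 70.8 and 76.0, and in CreER knockouts 97.2, 104, 81.4 and 89.5. In Mx1Cre controls it was 71.4, 78.0, 93.0 and 73.6, and in Mx1Cre knockouts 130, 100, 134 and 131. Within each Cre line every knockout library lay above every control. The log2 change was 0.47 ± 0.08 (SE; edgeR adjusted p = 1.5e-04).

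Ndufs6, an accessory subunit that binds zinc, rose by 0.56 ± 0.10 and Ndufa10 by 0.32 ± 0.06 (edgeR adjusted p = 4.8e-04 and 0.0012). Ndufa4, named for complex I but known as a subunit of complex IV, had a log2 change of 0.16 ± 0.08 (edgeR adjusted p = 0.16). Counted with complex IV instead, it left both medians at 0.32. Among the accessory subunits that did not pass were Ndufs4 (0.12 ± 0.12), which helps join the NADH-binding part to the rest, and Ndufab1 (0.19 ± 0.12), the mitochondrial acyl carrier protein. Ndufb4, at 7.31 TPM and with shared sequence, had a change of -0.00 ± 0.27. Values below 0 were thus not met among the other 38 tested members of complex I.

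Complex II, the only respiratory complex made of nuclear products alone, had all 4 subunits higher in LSK knockouts. The iron-sulfur and flavin subunits Sdhb and Sdha had log2 changes of 0.30 ± 0.07 and 0.25 ± 0.06 (edgeR adjusted p = 0.0051 and 0.0050). The membrane anchors Sdhc and Sdhd had 0.41 ± 0.08 and 0.37 ± 0.08 (edgeR adjusted p = 8.3e-04 and 0.0026). For Sdhc (gene 66052, chr1:171129157-171150640) CPM was 115, 116, 129 and 115 in the CreER control group and 162, 165, 117 and 136 in its knockouts. It was 115, 121, 115 and 112 in Mx1Cre controls and 162, 140, 172 and 194 in Mx1Cre knockouts. The Mx1Cre groups did not overlap, and in CreER the third knockout lay among the controls. These genes are long for members, at a median of 1232 bp of exon.

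Complex III had 8 of 9 members higher and 0 lower and, at 0.42, the highest median log2 change of the 5 complexes. Uqcrb, which binds ubiquinone, did not pass, at 0.35 ± 0.17 (edgeR adjusted p = 0.14). Cyc1, the gene of cytochrome c1 (66445, chr15:76343513-76346260), had the lowest p of all members. Its CPM was 169, 183, 187 and 183 in LSK CreER controls and 205, 234, 193 and 229 in knockouts. In Mx1Cre it was 168, 160, 196 and 168 in controls and 265, 232, 296 and 252 in knockouts. Groups of a Cre line did not overlap, and the change was 0.42 ± 0.07 (edgeR adjusted p = 1.1e-04). The core proteins Uqcrc1 and Uqcrc2 rose by 0.43 ± 0.07 and 0.40 ± 0.07, and the small subunit Uqcr10 by 0.58 ± 0.11. Uqcrfs1, the Rieske iron-sulfur protein, rose by 0.33 ± 0.07. Cytochrome c itself (Cycs), the mobile carrier to complex IV, had 0.24 ± 0.10 (edgeR adjusted p = 0.074).

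In complex IV, 9 of 14 tested members rose and 1 fell, with a median log2 change of 0.32. Cox6c (gene 12864, chr15:35931976-35938246) had the lowest p, with CPM of 43.4, 44.7, 62.1 and 50.2 in the CreER control group and 79.7, 69.3, 63.4 and 73.3 in its knockouts. In Mx1Cre controls it was 54.1, 54.3, 54.2 and 54.1, and in knockouts 89.9, 63.2, 99.4 and 91.7. Again no knockout library overlapped the controls of its line, and the change was 0.59 ± 0.09 (edgeR adjusted p = 1.6e-04). Cox6a1, the isoform of most tissues, rose by 0.38 ± 0.08 and Cox4i1, the most abundant member of the complex per length, by 0.40 ± 0.10. Cox7a2l, known for joining complexes III and IV into supercomplexes, had 0.11 ± 0.12, and Cox7c, with shared sequence, -0.19 ± 0.18; neither passed.

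Tissue-restricted isoforms of complex IV moved in both directions. Cox6a2, known from muscle, showed the greatest rise of all members, 0.99 ± 0.19 (edgeR adjusted p = 0.0010), at low levels. Its CPM was 0.676, 0.865, 0.654 and 0.993 in the controls of the CreER line and 1.25, 1.54, 1.31 and 1.42 in its knockouts. With Mx1Cre it was 1.45, 1.17, 1.69 and 1.83 in controls and 3.5, 3.86, 3.19 and 3.61 in knockouts. Knockouts lay above controls in each line without overlap. Cox4i2, the isoform known from lung and low oxygen, fell by 0.85 ± 0.30 on the log2 scale (edgeR adjusted p = 0.038). It was also scarce, at 1.98 ± 0.662 CPM in CreER controls against 1.17 ± 0.227 in knockouts and 2.34 ± 1.07 against 1.21 ± 0.643 with Mx1Cre. Its call was lost without LSK CreER knockouts 2 and 3, with a change of -0.76.

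Complex V had 10 of 17 members higher and 0 lower in LSK knockouts, with a median log2 change of 0.36. Of the 5 genes of the catalytic head 3 rose: Atp5b by 0.42 ± 0.07, Atp5a1 by 0.36 ± 0.07 and Atp5c1 by 0.25 ± 0.07 (edgeR adjusted p = 2.5e-04, 0.0010 and 0.0095). Atp5e, at 0.37 ± 0.15, and Atp5d, at 0.16 ± 0.07, did not pass (edgeR adjusted p = 0.084 and 0.12). Of the 4 genes of the peripheral stalk, which holds the head still, Atp5j, Atp5o and Atp5pb rose by 0.33 ± 0.07, 0.36 ± 0.08 and 0.30 ± 0.08, and Atp5h had 0.20 ± 0.11. The rotor ring is built of subunit c, which 3 genes encode with the same mature protein. Of these Atp5g3 (gene 228033, chr2:73908447-73912464) rose by 0.54 ± 0.09 and Atp5g1 by 0.39 ± 0.12 (edgeR adjusted p = 1.9e-04 and 0.023). Atp5g2 had -0.35 ± 0.20 (edgeR adjusted p = 0.21), with shared sequence and 9.41 TPM against 985 for Atp5g3. CPM of Atp5g3 was 248, 250, 307 and 244 in CreER controls and 350, 358, 262 and 323 in knockouts. In Mx1Cre it was 234, 217, 275 and 213 in controls and 406, 320, 456 and 421 in knockouts. Its Mx1Cre groups did not overlap, while in CreER the third control lay among the knockouts.

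**Figure D2:**
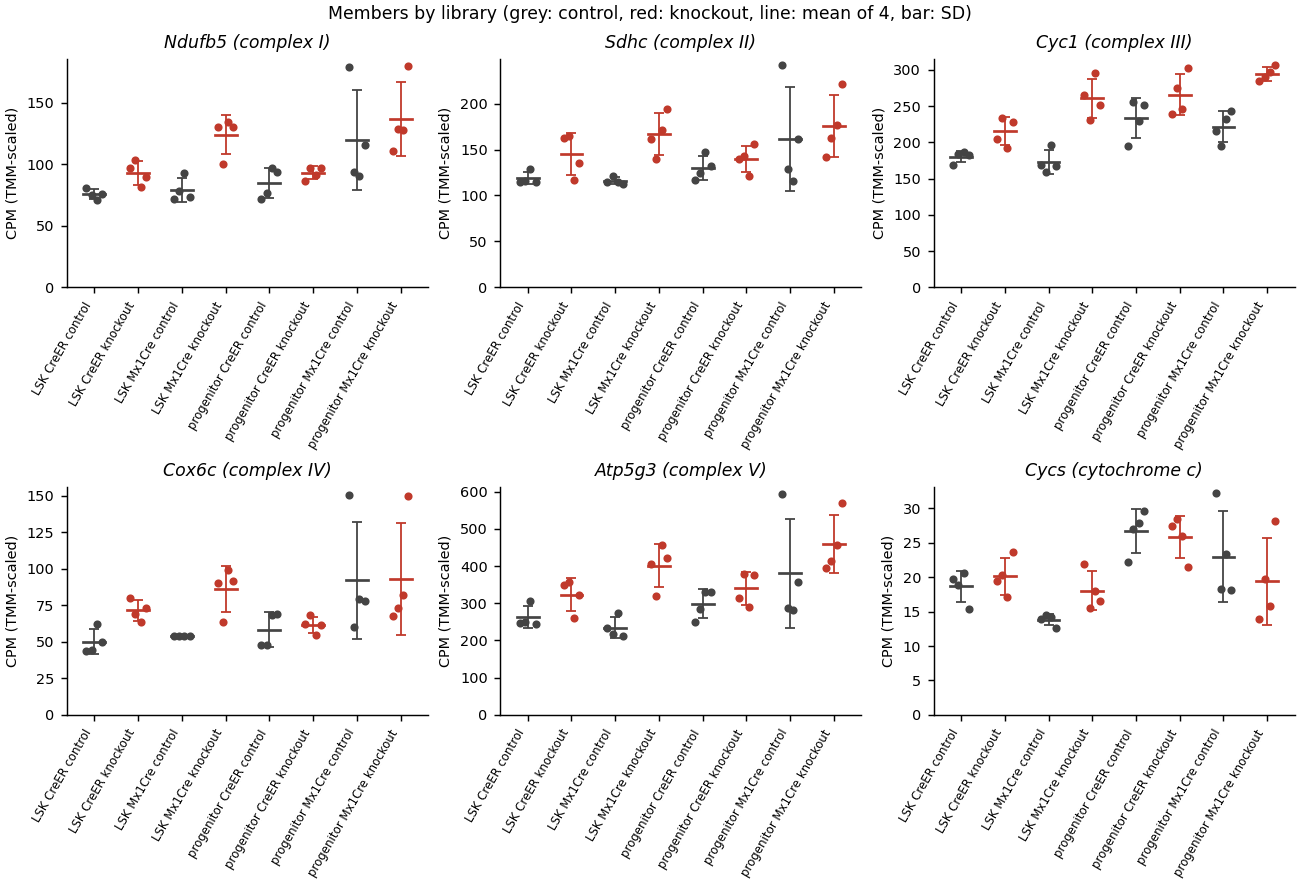
CPM (TMM scaled) of Ndufb5, Sdhc, Cyc1, Cox6c, Atp5g3 and Cycs in each of the 32 libraries, by group; grey points are controls, red points knockouts, bars the mean and SD of 4 libraries. In LSK Mx1Cre all knockout points of these genes lie above the controls, and in the progenitors only Cyc1 in Mx1Cre does so.

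The rise in LSK cells was called in the Mx1Cre line and mostly not in the CreER line. With Mx1Cre 58 of 84 members rose and 0 fell, where 30.9% of all genes were called and 15.1% were higher, with a median log2 change of 0.49. By complex that was 25 of 39, 4 of 4, 8 of 9, 9 of 14 and 12 of 17 for I to V. Of these genes 52 were also higher in the mean of both lines. With CreER 1 of 84 was called, where 3.23% of all genes were: Cox6c, at 0.52 ± 0.13 (edgeR adjusted p = 0.039). Another 21 CreER members had an unadjusted p under 0.05, the median was 0.18, and 73 of 84 log2 changes were above 0. Cox6c was not called without LSK CreER knockouts 2 and 3 or when the CreER groups were fitted alone.

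The difference between the lines was tested directly and no member passed. Under edgeR 0 of 84 were called for Mx1Cre minus CreER, where 4.45% of all genes were, with 28 at an unadjusted p under 0.05; DESeq2 called 4. The difference was above 0 for 76 members, with a median of 0.30 and the lowest p for Uqcrc1 (0.45 ± 0.14, edgeR adjusted p = 0.064). Left without LSK Mx1Cre knockout 2, which had the lowest CPM of the Mx1Cre knockouts for Ndufb5, Cox6c and Atp5g3, 30 were called higher. That library had a slope on exon length of 0.0225, against -0.0828, -0.120 and -0.133 in the other Mx1Cre knockouts. With all libraries and the length trend removed 0 were called. Every Mx1Cre knockout lay above every Mx1Cre control for 41 of 84 members and below for 0, against 15.4% and 14.6% of all genes. In CreER that held for 6 above and 1 below, against 4.13% and 4.99%.

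Summed over a complex, TPM showed the same order of groups. Complex I stood at 6392 ± 503 (SD, n = 4) in LSK CreER controls and 6980 ± 226 in knockouts, and at 6600 ± 401 against 8092 ± 723 with Mx1Cre. Complex II stood at 1099 ± 45.7 against 1228 ± 86.2 with CreER and at 958 ± 18.7 against 1193 ± 66.9 with Mx1Cre. For complex III the sums were 2319 ± 128 against 2772 ± 151 and 2462 ± 153 against 3324 ± 311. For complex IV they were 3773 ± 390 against 4345 ± 241 and 4249 ± 111 against 5457 ± 464, and for complex V 6909 ± 350 against 7812 ± 498 and 6714 ± 344 against 8813 ± 618. Ratios of knockout to control were 1.09 to 1.20 with CreER and 1.23 to 1.35 with Mx1Cre, highest in both lines for complex III. Scaled as RPKM with TMM factors instead, the Mx1Cre ratios were 1.37 to 1.51. Groups did not overlap for complexes II and III in both lines and for IV and V in Mx1Cre. Without LSK CreER knockouts 2 and 3 the CreER ratios were 1.10 to 1.19, and the groups did not overlap for complexes II to V. That left 2 knockouts against 4 controls. Knockout 3 was the lowest CreER knockout in every complex, so leaving it out could only favour a separation. Sums count a complex's genes, so they are no measure of its amount against another complex.

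**Figure D3:**
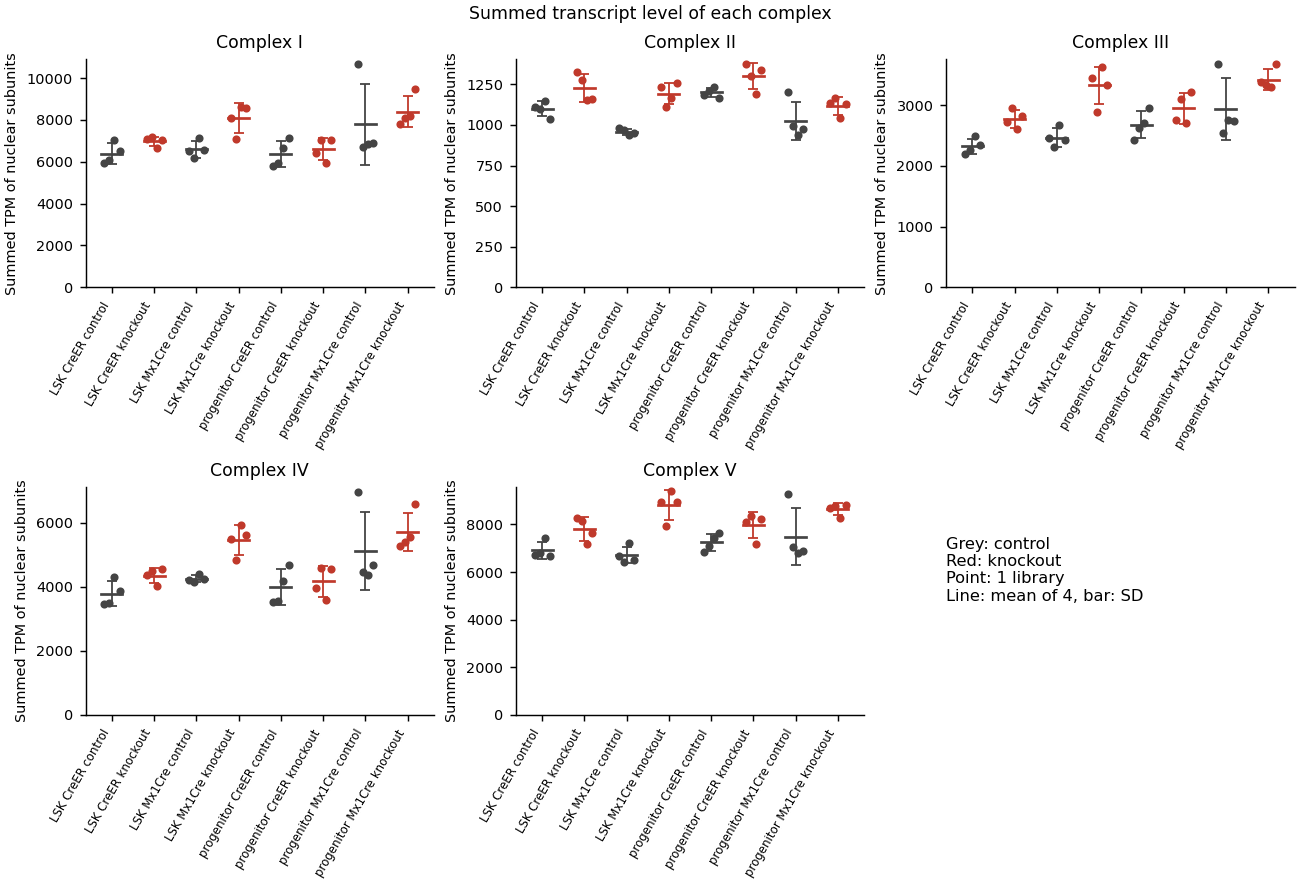
Summed TPM of the members of each complex in each library, by group (grey controls, red knockouts; bars are the mean and SD of 4 libraries). Knockout LSK groups stand above their controls for complexes II and III in both lines, and progenitor Mx1Cre control 1 stands far above its group for complexes I, IV and V.

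Members are short: their exons summed to a median of 651 bp, while the genes tested in LSK had 2619 bp. Their values were therefore read against length. Medians were 646 bp for complex I, 1232 for II, 546 for III, 557 for IV and 679 for V. In LSK Mx1Cre knockouts 3 of 4 libraries had slopes on length of -0.0828 to -0.133 over genes that are not members, that is, higher short genes, and knockout 2 had 0.0225. Slopes in the other 12 LSK libraries ran from -0.0589 to 0.113. Among 1844 genes of 1000 bp or less that are not members, 14.8% rose and 6.29% fell over the mean of both lines, with a median of 0.09. In Mx1Cre alone 19.7% of them rose and 6.45% fell, with a median of 0.15. Over the mean of both lines members rose in each length class: 20 of 36 up to 600 bp (median 0.37), 14 of 23 up to 1000 bp, where 1 fell (0.31), and 20 of 25 above (0.32). In Mx1Cre alone the class medians were 0.49, 0.47 and 0.50. In CreER alone they were 0.29, 0.10 and 0.15, highest in the shortest class. With the length trend of each library removed, 52 rose and 2 fell with a median of 0.25, and in Mx1Cre 52 rose and 2 fell with a median of 0.33. In CreER that correction gave 6 higher and 0 lower, with a median of 0.16.

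**Figure D4:**
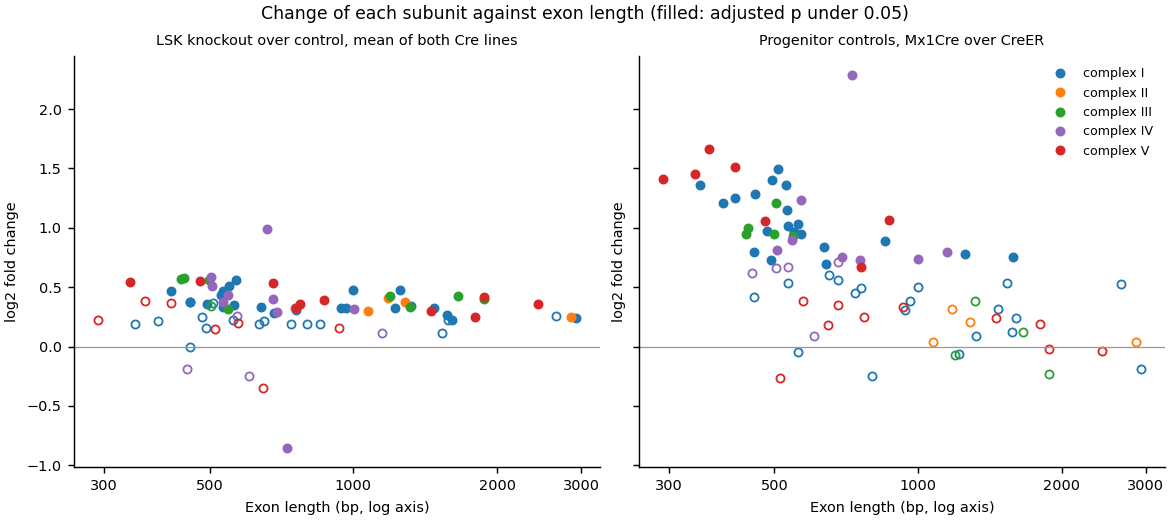
Log2 change of each member against its exon length (log axis), for LSK knockouts over controls and for progenitor controls, Mx1Cre over CreER. Over the mean of both lines the knockout change has class medians of 0.31 to 0.37, while in CreER alone they are 0.29, 0.10 and 0.15 from short to long. Between the control groups the change falls from a median of 0.99 up to 600 bp to 0.19 above 1000 bp.

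In progenitors few members passed in the knockouts. Over the mean of both lines 2 of 83 rose and 0 fell, with a median log2 change of 0.04. Of all 13692 genes tested 7.76% were called, 2.26% as higher, so the members' share of rises was near that of all genes. The 2 that rose were Cyc1, at 0.29 ± 0.08, and Uqcrc2, at 0.21 ± 0.06, of complex III (edgeR adjusted p = 0.032 and 0.042). For Cyc1 CPM was 195, 255, 230 and 252 in CreER controls and 240, 275, 246 and 302 in their knockouts. With Mx1Cre it was 216, 195, 233 and 244 in controls and 285, 290, 297 and 308 in knockouts. The CreER groups overlapped and the Mx1Cre groups did not. Cox4i2, which fell in LSK knockouts, had a log2 change of -1.82 ± 0.57 in progenitors and did not pass (edgeR adjusted p = 0.062), at 2.12 ± 0.452 CPM in Mx1Cre controls and 0.582 ± 0.490 in knockouts. DESeq2 called 4 members, 3 higher and 1 lower. Leaving out 1 library at a time gave counts of 0 to 8, the highest without progenitor Mx1Cre control 1. Without progenitor Mx1Cre control 1 and knockout 4, 8 rose and 1 fell, with a median of 0.12, and with the length trend removed 5 rose and 1 fell.

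With CreER alone 0 of 83 progenitor members were called by edgeR or DESeq2, where 0.168% of all genes were, with 1 at an unadjusted p under 0.05 and a median of -0.01. With Mx1Cre alone 1 was called, where 6.09% of all genes were: Cyc1, at 0.39 ± 0.11 (edgeR adjusted p = 0.042), with a median of 0.05 over members. It was not called when the Mx1Cre groups were fitted alone. For the difference between the lines 0 were called by edgeR or DESeq2, where 0.299% of all genes were, with 1 at an unadjusted p under 0.05. Knockouts lay above all controls for 3 members and below for 0 in CreER, against 4.77% and 4.81% of all genes. In Mx1Cre that held for 2 and 1, against 3.64% and 5.66%. Complex II sums were 1200 ± 28.5 TPM against 1301 ± 80.8 with CreER and 1026 ± 118 against 1117 ± 53.1 with Mx1Cre. Over the complexes the ratio of knockout to control was 1.04 to 1.10 with CreER and 1.08 to 1.17 with Mx1Cre, and with all libraries no complex separated the groups of a progenitor line. Scaled as RPKM with TMM factors instead, the ratios were 1.01 to 1.08 with CreER and 1.02 to 1.10 with Mx1Cre. The Mx1Cre sums rest on control 1. It was the highest control in all 5 complexes, so leaving it out after seeing the data could only favour a separation. Without it every knockout library lay above the other 3 controls in all 5 complexes. For complex I the knockouts then stood at 7808 to 9489 TPM against 6690 to 6918, and for complex III at 3301 to 3672 against 2546 to 2757. The Mx1Cre ratios of summed TPM were 1.15 to 1.28 without control 1, and 1.15 to 1.25 without knockout 4 as well, again with no overlap. Slopes on exon length were 0.0224, -0.000384 and -0.0666 in the remaining controls. In the knockouts they were -0.00368, -0.0114, -0.132 and -0.291. The sums were not corrected for this trend, and its part in them was not tested.

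The knockout change itself was compared between the populations over all 32 libraries. It was greater in LSK cells for 79 of 85 members, with a median difference of 0.29, but edgeR and DESeq2 each called 0, where 2.62% of all genes were called, and 11 had an unadjusted p under 0.05. Sdhb had a difference of 0.38 ± 0.15 and Cycs one of 0.40 ± 0.19 (edgeR adjusted p = 0.19 and 0.30). With the length trend removed 2 were called as higher, and 5 with the mouse as a block as well. Each mouse gave a library of each population, and the main fit, which called 0, did not pair them. Whether a rise particular to LSK cells was called for single members thus depended on these terms.

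Control groups of the Cre lines, which differ in mice, sex balance and inducer too, were compared within each population. In LSK controls 18 of 84 members were higher in Mx1Cre and 2 lower, where 21.7% of all genes were called, with a median of 0.12. The members' share called in either direction was thus near that of all genes. By direction 11.6% of all genes were higher and 10% lower, so the members leaned to the higher side. Among other genes of 1000 bp or less 15.8% were higher and 7.21% lower. The higher ones were small subunits such as Ndufa6 (0.56 ± 0.12), Uqcr10 (0.69 ± 0.15) and Cox8a (0.54 ± 0.13; edgeR adjusted p = 0.0024, 0.0037 and 0.0069). The lower ones were Sdhb, at -0.34 ± 0.10, and Cycs, at -0.40 ± 0.14 (edgeR adjusted p = 0.026 and 0.048). By length 13 of 36 were higher up to 600 bp and 1 of 25 above 1000 bp. Without LSK CreER control 2 the count was 6 higher and 1 lower, without CreER control 1 it was 9 and 0, and without Mx1Cre control 3 it was 9 and 1.

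In progenitor controls the same comparison gave 40 of 83 higher and 0 lower, where 25.1% of all genes were called, with a median of 0.67. None of the 7 core subunits of complex I and none of the 4 of complex II passed (0 and 0 at an unadjusted p under 0.05), and DESeq2 called 0 of complex II. This compares with 20 of 32 accessory subunits of complex I, 5 of 9 members of III, 8 of 13 of IV and 7 of 17 of V. Atp5mpl, a small subunit of the ATP synthase membrane part, had the lowest p, at 1.66 ± 0.30 (edgeR adjusted p = 0.0012). Its CPM was 27.1, 28.3, 44.6 and 50.1 with CreER and 215, 83.7, 76.0 and 98.7 with Mx1Cre, so that the groups did not overlap and Mx1Cre control 1 stood highest. The share higher was 28 of 36 up to 600 bp, 8 of 22 up to 1000 bp and 4 of 25 above. Among other genes of 1000 bp or less 25.7% were higher, with a median of 0.41. With the length trend removed 29 were higher and 3 lower with a median of 0.19, without Mx1Cre control 1 it was 22 and 2, and without both that library and Mx1Cre knockout 4 it was 32 and 3 with a median of 0.30. Without CreER control 1 or CreER control 2 the count was 20 in each case.

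Over the mean of both lines, many members were lower in LSK than in progenitor controls. Of 85 members 43 were lower and 2 higher in LSK. Of all 14459 genes tested 34.5% were called, 17.2% as lower. The median log2 difference was -0.35 against -0.03 over all genes. Among other genes of 1000 bp or less 17.4% were lower, with a median of -0.16. Lower were 17 of 39 in complex I, 4 of 4 in II, 7 of 9 in III, 7 of 15 in IV, 7 of 17 in V and Cycs. Cycs differed by -0.62 ± 0.13, Uqcrc1 by -0.48 ± 0.09, Uqcrc2 by -0.33 ± 0.06 and Ndufs1, the largest core subunit of complex I, by -0.41 ± 0.08. The 2 higher members were the isoforms Cox6a2, at 2.86 ± 0.41, and Cox4i2, at 1.17 ± 0.39 (edgeR adjusted p = 4.2e-06 and 0.021). Cox6a2 had 0.131 ± 0.138 CPM in CreER and 0.164 ± 0.143 in Mx1Cre progenitor controls, so its ratio rests on few counts. It failed the filter in progenitors and entered this fit through the LSK libraries. A higher level in LSK was thus a condition of its being tested, and its p gives no support. Without progenitor Mx1Cre control 1 the count fell to 18 lower and 2 higher, without progenitor CreER control 4 it was 25 and 2, and without LSK CreER control 2 it was 28 and 1. Without both progenitor Mx1Cre control 1 and knockout 4, 25 were lower and 2 higher, with a median of -0.20. With the mouse as a block, 52 were lower and 2 higher. Summed TPM did not differ this way in every complex. In CreER controls complex I stood at 6392 ± 503 in LSK and 6377 ± 636 in progenitors. The CreER means for complexes II to V were 1099 and 1200, 2319 and 2676, 3773 and 3980, and 6909 and 7250. In Mx1Cre controls the mean of each complex was lower in LSK, with progenitor control 1 included.

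These last comparisons share libraries with the knockout comparisons: LSK controls enter both. Each is given with its own values. For Uqcrc1 CPM was 324, 329, 342 and 315 in LSK CreER controls and 389, 401, 324 and 383 in knockouts, against 378, 437, 445 and 419 in progenitor CreER controls. With Mx1Cre it was 306, 285, 302 and 293 in LSK controls, 534, 380, 508 and 455 in LSK knockouts, and 607, 376, 404 and 441 in progenitor controls.

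Other mitochondrial genes were counted in 4 lists. Enzymes of the citrate cycle, which feeds NADH and succinate to complexes I and II, rose in LSK knockouts in 11 of 13 cases and fell in 0, with a median of 0.27. The isocitrate dehydrogenase subunit Idh3b had 0.30 ± 0.05 and fumarase Fh1 0.44 ± 0.08. Of 49 assembly factors tested 6 rose and 0 fell, with a median of 0.17, where 13.4% of all genes rose, so that this share was near the background. The lowest p values were those of Lyrm7, which helps insert the iron-sulfur protein of complex III (0.75 ± 0.12), Cox10 (0.29 ± 0.07) and Sco1 (0.23 ± 0.07), both needed to build complex IV. Without LSK CreER knockouts 2 and 3 this was 3 rose and 1 fell. Of 15 regulators of mitochondrial biogenesis tested 1 rose, the nuclear receptor Esrra (0.30 ± 0.08), and 0 fell, against the same 13.4% of all genes; DESeq2 called 3 higher and 1 lower.

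Subunits encoded by mitochondrial DNA did not pass in LSK knockouts: 0 of 13 were called by edgeR and by DESeq2, with 0 at an unadjusted p under 0.05 and a median of 0.11. Their spread was wide, with a summed level of 9228 to 23244 TPM in LSK CreER knockouts against 11631 to 19928 in controls. In progenitor knockouts 1 assembly factor rose, Lyrm7 (0.70 ± 0.13), 2 citrate cycle enzymes rose, among them Idh3b (0.30 ± 0.06), where 2.26% of all genes rose, and 0 regulators and 0 mitochondrially encoded subunits were called by edgeR (1 and 0 at an unadjusted p under 0.05) or DESeq2. Without progenitor Mx1Cre control 1 and knockout 4 it was 5 assembly factors and 5 enzymes.

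Markers of cell types were counted in the same comparisons. Of all genes tested 13.4% rose and 14.3% fell in LSK knockouts, and 2.26% rose and 5.5% fell in progenitor knockouts. Between control groups 11.6% of all genes were higher in Mx1Cre in LSK and 14.3% in progenitors. Lists this short give only a coarse share beside these. In LSK knockouts 7 of 10 markers of the LSK gate and of stem cells fell and 0 rose, 3 of 8 late neutrophil markers and 2 of 4 late erythroid markers rose, and of 10 markers of myeloid and erythroid progenitors 3 rose and 3 fell. Of monocyte and macrophage markers 2 of 8 rose, of B cell markers 1 of 5 fell and of T and NK cell markers 2 of 6 fell. The summed late neutrophil level was 334 to 624 TPM in LSK CreER controls, 552 to 3913 in their knockouts, 1372 to 8503 in Mx1Cre controls and 3567 to 7600 in Mx1Cre knockouts. The 10 stem cell and gate markers summed to 1232 to 1484 TPM in CreER controls, 871 to 1516 in their knockouts, 866 to 1094 in Mx1Cre controls and 608 to 903 in Mx1Cre knockouts. Late erythroid markers summed to 2.92 to 36.4 TPM over all LSK groups, with Hba-a2 and Slc4a1 at 0 in CreER controls. Progenitor markers summed to 6982 to 13719 TPM in LSK CreER controls, 8215 to 18313 in their knockouts, 22555 to 28444 in Mx1Cre controls and 24547 to 32590 in Mx1Cre knockouts. Between control groups all 8 late neutrophil markers were higher in Mx1Cre, with a median of 2.89 in LSK and 3.83 in progenitors. In progenitor knockouts 4 of 8 monocyte markers fell and 1 of 7 late erythroid markers rose, while late neutrophil markers had a median of 1.22 with 0 of 8 called and 5 at an unadjusted p under 0.05. The part of these cells in the subunit levels was not tested.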

How the data were processed

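RNA of sorted LSK and progenitor cells was sequenced as paired-end libraries per the labels' protocols, and the deposited values are whole-number counts of reads per gene, made by the authors with featureCounts on mm10 per the submitters' processing notes. For the aligner, the annotation, the version and whether strand was used, the sources used here give nothing. Groups came from the sample titles. Rows without a symbol held 3.92% of counts and stayed in library sizes and tests under their gene IDs.

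Counts were tested with edgeR 4.0.16 (quasi-likelihood, robust, TMM, R 4.3.3) after its expression filter (count minimum 10, total 15), with Benjamini-Hochberg adjustment over all genes at 0.05. LSK and progenitor libraries were fitted apart, and together for comparisons between them. DESeq2 1.42.0, other size factors and filters, sex, exon length (lowess, span 0.3), blocks and left-out libraries were alternatives. The test was checked on simulated counts. CPM uses TMM over all libraries, and TPM the deposited exon lengths.

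Same-numbered knockouts and controls are different mice, and replicate number entered only as a block in alternatives. In LSK Mx1Cre same-numbered deviations correlated at 0.147 to 0.258. Replicates 1 and 2 were female and 3 and 4 male in its knockouts and its controls, so shared sex cannot be told apart from pairing there. In the other 3 pairs of groups 1, 2 and 1 of 4 correlations exceeded 0.1. LSK and progenitor libraries of a mouse pair by animal (-0.0954 to 0.425). Members and lists were chosen with earlier results of these data known. Genes were named by lowest p per complex and comparison, by level, by call in the progenitors, by a sign against the majority, and by membership of complex II or subunit c. Ndufs4, Ndufab1, Ndufb4, Cox7a2l, Cox7c, Uqcrfs1 and the peripheral stalk and catalytic head genes were added after their values were seen. The values of 1 gene that the rule names are not reported here.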

Additional observations from a re-analysis of the deposited data

Results flagged for a closer look

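Progenitor Mx1Cre control 1 stood apart from the 3 other libraries of its group in the summed level of 3 complexes. Complex I summed to 10664 TPM there against a group median of 6893, complex IV to 6940 against 4561 and complex V to 9268 against 6962. The gap to the nearest library took 0.943, 0.884 and 0.891 of the group's range in these complexes, above Dixon's critical value for 4 libraries. The rule was applied to 40 group levels, and chance marks about 1 in 20. The same library had the steepest length slope, -0.350, and the counts without it are given beside the results that rest on it. Whether its length slope has a part in these levels was not tested.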

How the results depend on the processing

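No count of members changed direction under any alternative. For LSK knockouts over the mean of both lines and with Mx1Cre, every count lay within 1.5 times of 55 and 58; leaving out 1 library gave 46 to 68 and 45 to 67. In LSK CreER (1 called) DESeq2 and sex as a covariate gave 2 each, the length trend removed 6, the replicate block with it 5, and 0 were called without LSK CreER knockouts 2 and 3 or in the CreER groups alone. Leaving out 1 library gave 0 to 5. The LSK difference between lines (0) was 4 with DESeq2 and 0 to 30 with 1 library left out. LSK controls (20) gave 13 without a filter, and 7 to 25 with 1 library left out. Progenitor knockouts over both lines (2) gave 4 with DESeq2, 1 without a filter, 6 with the length trend removed, 1 with the replicate block, 5 with both, 9 without Mx1Cre control 1 and knockout 4, and 0 to 8 with 1 library left out. Progenitor Mx1Cre (1) gave 0 without a filter, 2 with the replicate block and the length trend removed, 3 without those 2 libraries, 0 in its groups alone, and 0 to 6 with 1 left out. Progenitor CreER and the difference between its lines stayed at 0 to 0. Progenitor controls (40) gave 20 to 45 with 1 library left out. Controls of LSK over progenitor (45) gave 27 without those 2 libraries and 20 to 63 with 1 left out. The knockout difference between populations (0) gave 2 with the length trend removed, 5 with the mouse block and the length trend removed, 1 without those 2 libraries and 0 to 1 with 1 left out. The causes were not tested. Leaving out progenitor Mx1Cre control 1 and knockout 4, and summed levels without libraries, were chosen after seeing the data. The replicate block gave 59 for the LSK mean and 59 for LSK Mx1Cre, and the mouse block 54 for LSK over progenitor controls.

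The count of 1 for LSK CreER changed with 11 of 16 left-out libraries, that for the progenitor mean with 12 of 16 and that for progenitor Mx1Cre with 11 of 16, so single calls there depend on each library. Of 216 values of summed levels under alternatives 187 moved by less than the SD between replicates, and of 2076 medians 2020 moved by less than the median SE of their members. Libraries of 7275277 counts and up leave Cox7b2 and Cox8c at 0 and Cox8b and Ndufa4l2 too low to test.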
